A study of Mus musculus with 10 samples.

Results

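Microglia are the resident macrophages of the brain, and 10 genes that mark them at rest or after activation are described here in the mouse dentate gyrus. The members are Cx3cr1, P2ry12, Tmem119, Csf1r, Csf1, Tyrobp, Trem2, Itgax, Clec7a and Laptm5, listed by symbol. They were chosen with earlier results of these data known, so the choice was not blind to the data. All 10 were found among the 48526 gene identifiers of the table. Each averaged 10 normalized counts or more and entered the test among 17007 genes.

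The study measured messenger RNA in dentate gyrus tissue dissected from C57Bl/6 mice aged 8 weeks. Both groups had received 1 µl of adeno-associated virus of serotype 9 in the dentate gyrus on the left and on the right, in 5 mice with the coding sequence of GFP and in 5 mice with that of the transcription factor Sox11. The vector's promoter, like the interval between injection and dissection, was not given in the sources used here. No group without virus is among the samples, so an effect shared by both viruses cannot be seen in this comparison. Libraries carry the numbers of the deposited columns, GFP 1, 3, 4, 5 and 6 and Sox11 1, 2, 3, 6 and 7.

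Microglia depend on the receptor tyrosine kinase CSF1R, which responds to the cytokines CSF1 and IL-34. They survey the tissue at rest and sense neurons through the fractalkine receptor CX3CR1 and extracellular nucleotides through P2RY12. On activation by lipids, debris or damaged myelin, the receptor TREM2 signals through its adaptor TYROBP (DAP12), and cells in this state are known for lowered P2ry12 and Tmem119 and raised Itgax and Clec7a. In bulk tissue, fewer cells of a type and less RNA per cell cannot be told apart.

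Sequencing depth was between 45100154 and 68769808 reads assigned to genes per library. Sox11 itself read 1364 to 1634 normalized counts in GFP libraries and 9803 to 20434 in Sox11 libraries, the order that the labels give. On the first principal component of all tested genes, which held 43.3% of the variance, the libraries numbered 1 to 3 in either group lay below 0 and those numbered 4 to 7 above 0. The division was not sharp, since GFP 4 lay at 8.15, nearer to Sox11 3 at -3.09 than to the next library of its own set at 31.7. No label names this division, and the fold changes within each side of it are given below. Library GFP 3 held 345861 normalized counts of Ttr, a choroid plexus transcript, against 34.9 to 1312 elsewhere.

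Of the 10 members, 4 rose (Itgax, Clec7a, Laptm5 and Tyrobp), 1 fell (Csf1) and 5 did not pass limma's test at an adjusted p of 0.05, where 9.65% of all tested genes rose and 9.36% fell. The median log2 fold change of the members was 0.11, against -0.01 over all genes tested. Only Itgax had groups that did not overlap, 1 of 10 members higher and none lower, where the groups of 8.63% of all tested genes did not overlap with Sox11 higher and of 7.29% with Sox11 lower. With 1 library left out, 3 members rose without GFP 3, GFP 4 or Sox11 6, 2 without GFP 1, and only Itgax without any other library, while Csf1 fell in every case.

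**Figure D1:**
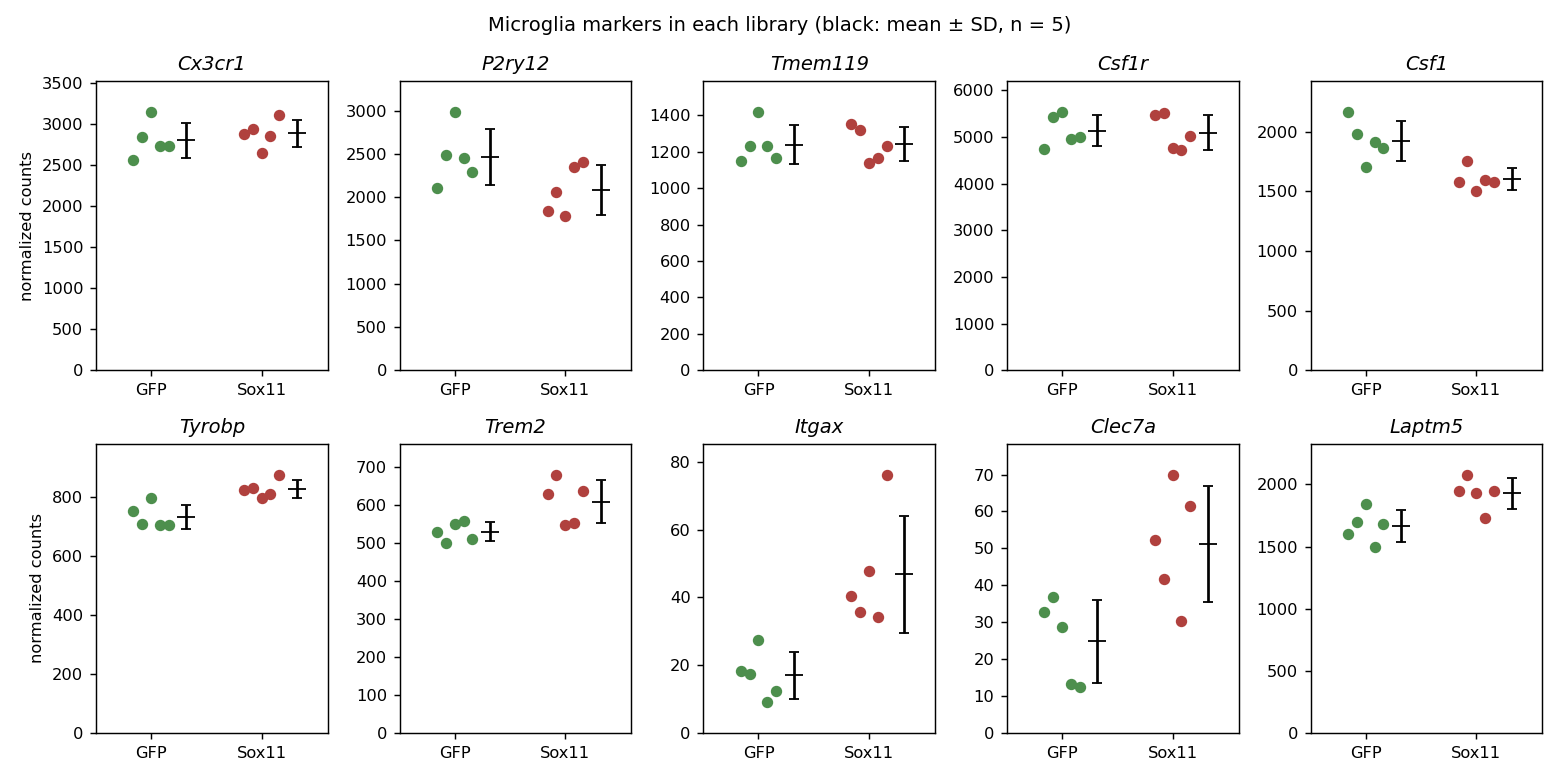
Normalized counts (y axis, from 0) of each of the 10 members in each library, by group (x axis), with the mean and SD of 5 libraries in black. Itgax is the member whose groups do not overlap, and the points of Cx3cr1, Tmem119 and Csf1r overlap widely between the groups.

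The members differed widely in abundance. Per kilobase of the longest coding transcript, Tyrobp was the most abundant member in GFP libraries at 1231 ± 67.9 normalized counts per kilobase (mean ± SD, n = 5). Csf1r followed at 1092 ± 70.7 and P2ry12 at 1051 ± 139.8 on the same scale, and these 2 levels differed by less than their spread. Laptm5 (640.1 ± 49.7) and Cx3cr1 (624 ± 48.2) also lay within 1 SD of each other. Tmem119 was at 553 ± 47.6, Trem2 at 487 ± 22.7 and Csf1 at 461 ± 40.7, and the last pair differed by more than the SD of Trem2 and less than that of Csf1. Clec7a (10.9 ± 4.96) and Itgax (4.19 ± 1.72) were the lowest members, in tissue where the markers of resting microglia were well detected. With all annotated exons merged instead, Tyrobp stayed first and Itgax last, P2ry12 and Csf1r changed places, Laptm5 moved from rank 4 to rank 6 and Trem2 stood at 107 normalized counts per kilobase in place of 487, below Csf1 at 365, so the order of these members depends on the length used.

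Upstream sequences are shown for 3 members that changed, the 2 with the largest rises and the 1 that fell. Each is the 250 bases before the start in RefSeq on GRCm38.p6, printed 5′ to 3′ along the gene, and capitals mark GAGGAA, the core of the site bound by the myeloid factor PU.1, searched on both strands. They lie at chr7:128129300-128129549 (Itgax, plus strand), chr6:129472780-129473029 (Clec7a, minus strand) and chr3:107760470-107760719 (Csf1, minus strand).
Itgax: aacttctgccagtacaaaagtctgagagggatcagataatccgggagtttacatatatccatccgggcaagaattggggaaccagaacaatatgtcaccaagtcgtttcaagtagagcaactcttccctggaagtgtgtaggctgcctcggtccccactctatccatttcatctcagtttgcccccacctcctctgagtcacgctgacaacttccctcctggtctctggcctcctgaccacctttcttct
Clec7a: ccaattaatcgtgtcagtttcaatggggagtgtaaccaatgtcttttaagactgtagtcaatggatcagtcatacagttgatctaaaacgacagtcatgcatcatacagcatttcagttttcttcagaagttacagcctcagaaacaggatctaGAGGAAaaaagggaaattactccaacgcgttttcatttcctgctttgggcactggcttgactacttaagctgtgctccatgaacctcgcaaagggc
Csf1: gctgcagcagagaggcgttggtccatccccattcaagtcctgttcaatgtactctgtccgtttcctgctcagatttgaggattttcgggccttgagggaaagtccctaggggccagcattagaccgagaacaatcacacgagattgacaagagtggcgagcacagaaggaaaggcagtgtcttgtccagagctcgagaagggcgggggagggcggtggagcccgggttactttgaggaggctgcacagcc
A match stood 90 bases before the Clec7a start on the gene's strand, and none was in the windows of Itgax and Csf1. Of the 7 members with a window 3 held a match, Clec7a, Trem2 and Laptm5, and Cx3cr1, P2ry12, Itgax and Csf1 held none, where 23.1% of 27025 windows of this length held at least 1. The windows of Laptm5, Cx3cr1 and P2ry12 lie largely or wholly in annotated exons and are not printed or read further. A match describes letters and not binding.

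Itgax encodes integrin alpha X (CD11c), a subunit of a complement receptor of dendritic cells and of activated microglia. It lies on chromosome 7 at 128129547 to 128150657 (GRCm38, plus strand, ENSMUSG00000030789). Its levels were 18.4 normalized counts in GFP 1, 17.3 in GFP 3, 27.5 in GFP 4, 9.15 in GFP 5 and 12.5 in GFP 6. In the Sox11 group they were 40.4 (Sox11 1), 35.7 (Sox11 2), 47.9 (Sox11 3), 34.1 (Sox11 6) and 76.2 (Sox11 7). Each Sox11 library lay above every GFP library, with Sox11 7 the highest and GFP 5 the lowest. The log2 fold change was 1.44 (SE 0.31, adjusted p = 0.00733 in limma), and the group means were 16.9 ± 6.97 and 46.9 ± 17.3 (SD, n = 5 each). Only 80 reads stood behind the GFP group and 250 behind the Sox11 group, and the coefficient of variation in GFP libraries was 41.1%, of which counting alone gives 26.6%. The call held with each library left out, with adjusted p-values of 0.0053 to 0.0207. Of its 31-base words 89.3% occur in no other gene's transcripts, so part of its count could be shared with a related gene.

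Clec7a encodes dectin-1, a receptor for fungal beta-glucans that also marks activated microglia. It lies on chromosome 6 at 129461591 to 129472779 (minus strand, ENSMUSG00000079293), and GENCODE M21 lists it as a polymorphic pseudogene. Normalized counts were 32.9 in GFP 1, 36.9 in GFP 3, 28.6 in GFP 4, 13.2 in GFP 5 and 12.5 in GFP 6. They were 52.3 in Sox11 1, 41.7 in Sox11 2, 70.0 in Sox11 3, 30.4 in Sox11 6 and 61.4 in Sox11 7. The groups overlapped through Sox11 6, which lay below GFP 1 and GFP 3, and 4 of 5 Sox11 libraries lay above the highest GFP library. The log2 fold change was 1.09 (SE 0.34, adjusted p = 0.0463 in limma). This call ended on removal of any library but GFP 1, GFP 3 and Sox11 6 (adjusted p up to 0.11). Within columns numbered 1 to 3 the log2 fold change was 0.60, and within those numbered 4 and above it was 1.31.

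Tyrobp encodes the adaptor that passes on signals from TREM2 and related receptors through its immunoreceptor tyrosine-based activation motif (ITAM). The gene is on chromosome 7 at 30413760 to 30417585 (plus strand, ENSMUSG00000030579). It read 755 normalized counts in GFP 1, 711 in GFP 3, 797 in GFP 4, 706 in GFP 5 and 705 in GFP 6, and 827, 834, 797, 812 and 877 in Sox11 1, 2, 3, 6 and 7. GFP 3, 5 and 6 lay close together with GFP 1 and GFP 4 above them, and GFP 4 equalled the lowest Sox11 library to within 1 normalized count. Tyrobp differed by 0.18 on the log2 scale (SE 0.05, adjusted p = 0.0414 in limma), a 1.13-fold difference. Removal of any library but GFP 4 ended the call (adjusted p up to 0.0938, against 0.0268 without GFP 4).

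Trem2, the receptor that uses Tyrobp (chromosome 17, 48346401 to 48354147, plus strand, ENSMUSG00000023992), did not pass. Its levels were 529.6, 499.9, 551, 557 and 511 normalized counts in GFP 1, 3, 4, 5 and 6, and 628, 679.9, 548, 553 and 636 in Sox11 1, 2, 3, 6 and 7. Sox11 3 and Sox11 6 fell within the GFP range and the other 3 Sox11 libraries lay above it. The log2 fold change was 0.20 (SE 0.07, adjusted p = 0.0843 in limma), with a 95% confidence interval of 0.04 to 0.36 that holds the value of Tyrobp. With estimated sample weights Trem2 passed (adjusted p = 0.0392).

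Laptm5, a lysosomal membrane protein of blood-derived cells and microglia (chromosome 4, 130913125 to 130936141, plus strand, ENSMUSG00000028581), was measured at 1603, 1695, 1846, 1494 and 1682 normalized counts in GFP 1, 3, 4, 5 and 6. The Sox11 libraries 1, 2, 3, 6 and 7 had 1949, 2079, 1929, 1733 and 1949. Only Sox11 6 lay inside the GFP range, below GFP 4. Laptm5 differed by 0.21 on the log2 scale (SE 0.06, adjusted p = 0.0382 in limma), a 1.16-fold difference. Removal of any library but GFP 3, GFP 4 and Sox11 6 ended the call (adjusted p up to 0.0897).

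Csf1, the cytokine ligand of CSF1R, which several brain cell types make, was the member that fell (chromosome 3, 107741048 to 107760469, minus strand, ENSMUSG00000014599). It stood at 2167 normalized counts in GFP 1, 1982 in GFP 3, 1701 in GFP 4, 1913 in GFP 5 and 1862 in GFP 6, and at 1580.4, 1753, 1502, 1594 and 1581 in Sox11 1, 2, 3, 6 and 7. Overlap came from 1 pair of libraries, GFP 4 below Sox11 2. Csf1 differed by -0.26 on the log2 scale (SE 0.07, adjusted p = 0.0167 in limma), with group means of 1925 ± 170.1 and 1602 ± 91.9 (SD, n = 5 each). The adjusted p stayed between 0.00848 and 0.0431 with each library left out.

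Csf1r, the receptor of that ligand (chromosome 18, 61100598 to 61132149, plus strand, ENSMUSG00000024621), ranged from 4745 to 5532 normalized counts in GFP libraries with a median of 4996, and from 4717 to 5502 in Sox11 libraries with a median of 5016. Its log2 fold change was -0.01 (95% confidence interval -0.15 to 0.12, adjusted p = 0.931 in limma). Of its 31-base words 85.1% are its own, and 15.1% of its exonic bases lie under a gene on the opposite strand, so its level could hold reads of that gene. Il34, the other ligand, had 2436 ± 159 and 2291 ± 431 normalized counts (mean ± SD, n = 5 each) and did not pass (log2 fold change -0.10, adjusted p = 0.573).

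Cx3cr1, the receptor for the neuronal chemokine fractalkine (chromosome 9, 119901616 to 120069879, minus strand, ENSMUSG00000052336), had 2565 to 3149 normalized counts in GFP libraries (median 2738) and 2651 to 3108 in Sox11 libraries (median 2882). Tmem119, a membrane protein used to tell microglia from other macrophages (chromosome 5, 113793729 to 113800516, minus strand, ENSMUSG00000054675), had 1152 to 1419 (median 1231) and 1140.0 to 1356 (median 1229.8). Their ranges were nearly the same in the 2 groups. The log2 fold changes were 0.04 for Cx3cr1 (95% confidence interval -0.09 to 0.17, adjusted p = 0.695) and 0.00 for Tmem119 (interval -0.15 to 0.16, adjusted p = 0.983) in limma.

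P2ry12, the nucleotide receptor by which resting microglia extend processes toward injury (chromosome 3, 59216272 to 59262871, minus strand, ENSMUSG00000036353), was lower on average without passing. It read 2107, 2488, 2984, 2453 and 2289 normalized counts in GFP 1, 3, 4, 5 and 6, and 1840.1, 2054, 1778, 2346 and 2408 in Sox11 1, 2, 3, 6 and 7. No Sox11 library exceeded the GFP median of 2453, but only 3 of 5 lay below the lowest GFP library. The log2 fold change was -0.24 (SE 0.11, 95% confidence interval -0.48 to -0.01, adjusted p = 0.147 in limma). Within columns numbered 1 to 3 it was -0.28 and within those numbered 4 and above -0.11, with adjusted p-values of 0.133 and 0.557.

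**Figure D2:**
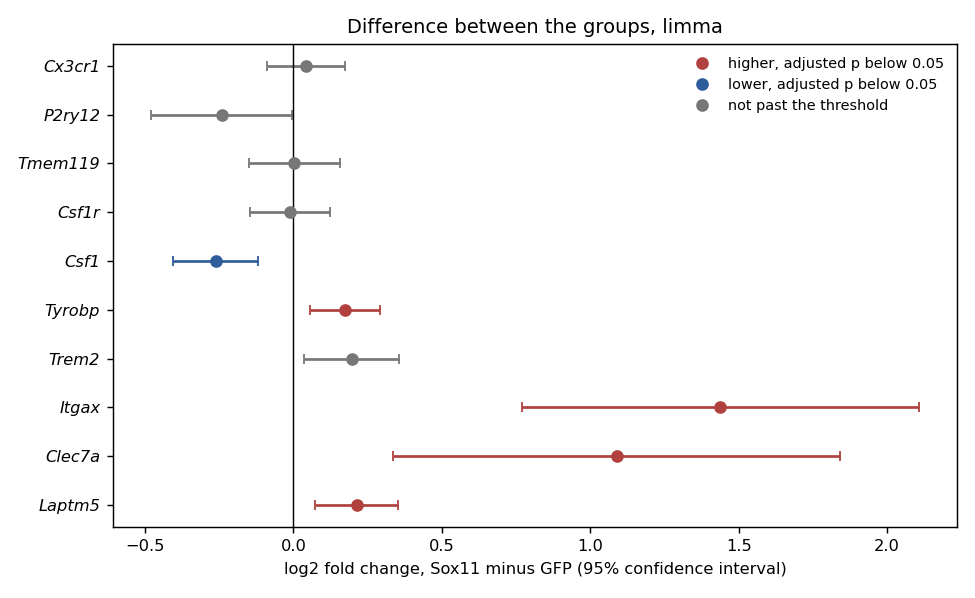
Log2 fold change of each member, Sox11 minus GFP (x axis), with its 95% confidence interval from limma. Red members rose, the blue member fell and grey members did not pass. Itgax (1.44) and Clec7a (1.09) have both the largest changes and the widest intervals.

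Within the libraries numbered 1 to 3 and those numbered 4 and above, fitted separately, no member passed in limma (4 and 3 of 10 members had an unadjusted p below 0.05). The 5 called members kept their direction on both sides. For Itgax the log2 fold changes were 1.16 and 1.73 (adjusted p = 0.0517 and 0.0586), for Csf1 -0.37 and -0.20 (0.0595 and 0.1), for Laptm5 0.27 and 0.14 (0.0583 and 0.385) and for Tyrobp 0.16 and 0.20 (0.198 and 0.185). With the division as a covariate over all 10 libraries, 4 members rose and 1 fell.

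The members were next compared with one another within the same libraries, since a ratio of 2 genes does not depend on the scaling between libraries. For all 45 pairs the log2 ratio was compared between groups by a two-sided exact permutation test over the 252 assignments of 5 of the 10 libraries, whose smallest p is 0.00794, and p-values were adjusted over the 45 pairs. The ratio differed for 22 pairs at an adjusted p below 0.05, all with an unadjusted p of 0.0238 or less, as 21.7% of all pairs of tested genes had. An unadjusted p below 0.05 was found for 34 member pairs (75.6%), against 27.8% of all pairs of tested genes, and groups that did not overlap for 15 (33.3%), against 14.4%. The 45 pairs share 10 genes and are not independent. Itgax took part in 8 of the 22 pairs, P2ry12 in 6, Csf1, Trem2 and Laptm5 in 5 each, and Cx3cr1 in 2. Within the libraries numbered 1 to 3 or 4 and above, 5 libraries are too few for this test to reach 0.05.

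Relative to the receptor Csf1r, Trem2, Laptm5, Itgax and Clec7a were higher in Sox11 libraries. The log2 ratio of Csf1r to Trem2 was 3.27 ± 0.12 in GFP and 3.06 ± 0.06 in Sox11 libraries (mean ± SD, n = 5 each), a difference of -0.21, and that of Csf1r to Laptm5 was 1.63 ± 0.07 and 1.40 ± 0.07, a difference of -0.22. For both, the ratio was lower in 5 of 5 Sox11 libraries than in any GFP library (exact permutation p = 0.00794, adjusted p = 0.0238). The ratio of Csf1r to Tyrobp differed by -0.19, with an exact permutation p of 0.0317 (adjusted p = 0.0529), and did not pass. The ratio of Csf1r to Itgax differed by -1.45 and that to Clec7a by -1.10, with adjusted p-values of 0.0238 and 0.0487 in the exact permutation test.

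P2ry12 was lower relative to 6 of the other 9 members. Its log2 ratio to Tyrobp changed by -0.42, to Trem2 by -0.44 and to Laptm5 by -0.45 (exact permutation p = 0.0159, adjusted p = 0.0357 for each). The ratio of Cx3cr1 to P2ry12 rose from 0.19 ± 0.08 to 0.48 ± 0.15 (mean ± SD, n = 5 each, exact permutation p = 0.0159, adjusted p = 0.0357). Against Tmem119 and Csf1r, the other markers of resting cells, the change of P2ry12 was -0.25 and -0.23, with adjusted exact permutation p-values of 0.0992 and 0.135.

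Csf1 was lower in Sox11 libraries relative to Tyrobp (-0.44), Trem2 (-0.46), Itgax (-1.70), Clec7a (-1.35) and Laptm5 (-0.48). The adjusted exact permutation p was 0.0238 for each. Ratios of Tmem119 to Trem2, Itgax and Laptm5 also passed, as did those of Itgax with Cx3cr1, Tyrobp, Trem2 and Laptm5. The pairs that follow did not pass. The log2 ratio of Tyrobp to Trem2 was 0.47 ± 0.08 and 0.45 ± 0.11 (mean ± SD, n = 5 each), a change of -0.02, and that of Tmem119 to Csf1r changed by 0.02 with SDs of 0.07 and 0.02. Itgax against Clec7a changed by 0.35 with SDs of 0.46 and 0.35 (exact permutation p = 0.238), and Csf1r against Csf1 by 0.25 (exact permutation p = 0.0397, adjusted p = 0.0558). With 5 libraries a group these values do not show that the members changed alike.

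**Figure D3:**
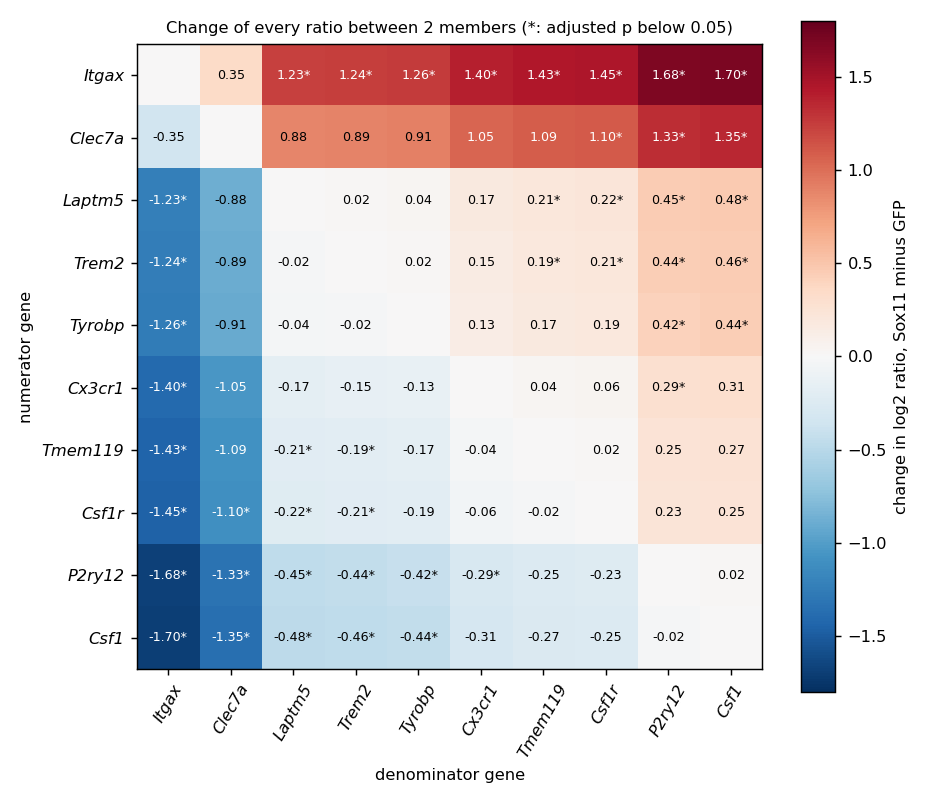
Change of the log2 ratio between every 2 members, Sox11 minus GFP (color), with the row gene as numerator and the column gene as denominator. A star marks an adjusted p below 0.05 in the exact permutation test. Itgax and Clec7a as numerators are mostly red, and P2ry12 and Csf1 as numerators are mostly blue.

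Variation within groups was described by correlation. After subtracting the group means, the Pearson correlation over the 10 libraries of log2 levels was 0.89 for Tmem119 with Csf1r, 0.85 for Cx3cr1 with P2ry12, 0.80 for Tyrobp with Itgax and 0.74 for Itgax with Clec7a. Over all 45 pairs r ran from -0.44 to 0.89 with a median of 0.39, and 9 pairs were negative. The median of Clec7a with the other 9 members was 0.12 and that of P2ry12 0.25. Csf1 differed in sign, with a median of -0.22 with the other 9 members. These are descriptions over libraries that also differ by the division of column numbers, and the counts of Itgax and Clec7a are low. The genes most like Tyrobp on this measure, among those averaging 50 normalized counts or more, were Rfx4 (r = 0.93), Rbm15 (0.91), 4930590J08Rik (0.90), Pdcd10 (0.90) and Gpr37 (0.89). For Itgax they were Ublcp1 (0.97), Cox17 (0.91), Ahrr (0.91), Gm3604 (0.91) and Haus1 (0.90), among those averaging 10 or more. None of the 10 is a member or stands on the other microglia lists.

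Other genes of the same cells and pathways came from lists chosen by known role, also with earlier results of these data known. Of all tested genes, 9.65% rose and 9.36% fell in limma, and every list count below is to be read beside these shares. In edgeR the shares were 10.2% and 8.88%, and in DESeq2 12.0% and 12.0%. Of 20 further markers of resting microglia 2 rose and none fell in limma (3 and none in edgeR and in DESeq2), with a list median log2 fold change of 0.03. These were the complement subunits C1qb, from 2215 ± 57.5 to 2784 ± 254 normalized counts (log2 fold change 0.33, SE 0.06), and C1qc, from 2079 ± 122 to 2564 ± 159.7 (0.30, SE 0.06; mean ± SD, n = 5 each). The summed level of the 20 markers was 47104 to 51761 normalized counts in GFP and 46890.3 to 52087 in Sox11 libraries. Sparc (means of 14009 in GFP and 13104 in Sox11 libraries) and Golm1 (8589 and 8682) were its largest parts. The sum therefore says little about the less abundant markers. Sall1 and Siglech, which define microglia, were measured at GFP means of 1096 and 783 normalized counts, so the tissue held the cell type the members are named for.

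Of 24 tested markers of activated microglia other than the members, none rose in limma, where 3 had an unadjusted p below 0.05 and a higher level, while 1 rose in edgeR, 2 in DESeq2 and 4 in limma with sample weights. With 1 library left out, 0 to 2 rose. Apoe lay at the edge of the threshold (log2 fold change 0.22, SE 0.07, adjusted p = 0.050001 in limma). For Apoe, 4 of 5 Sox11 libraries lay above the highest GFP library. Its means were 63068 ± 4158 normalized counts in GFP and 73480 ± 6253 in Sox11 libraries, far above those of any member. Bulk tissue does not show which cells made this RNA. In that list 3 genes fell, namely Cd83 (log2 fold change -0.48, SE 0.05), the ferritin chain Fth1 (-0.28, SE 0.07) and the protease Ctsb (-0.17, SE 0.05). Ctsb kept its call only without GFP 5 or Sox11 2 (adjusted p up to 0.0718). Cst7, a cystatin that rises with Itgax and Clec7a in the activated state, entered the test only through the Sox11 group. Its mean therefore had to be higher in that group. Cst7 had 7.41 ± 3.99 normalized counts in GFP and 23.1 ± 13.8 in Sox11 libraries and did not pass (adjusted p = 0.114 in limma). Fth1 and Ctsb are also made by neurons and other glia.

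Of 11 genes of CSF1R ligands, related receptors and downstream signalling, 1 rose and 1 fell. Sh3bp2, an adaptor protein of myeloid and other cells, had 256 ± 22.5 normalized counts in GFP and 782 ± 119 in Sox11 libraries (SD, n = 5 each), and rose by 1.60 on the log2 scale (SE 0.11). Cbl, the ubiquitin ligase that ends receptor signalling, changed by -0.29 (SE 0.06). Of 21 tested genes of TREM2-TYROBP and ITAM signalling, Fyn, a kinase also abundant in neurons, rose by 0.30 (SE 0.06) and Plcg2, the phospholipase downstream of SYK, fell by 0.22 (SE 0.06). Plcg2 kept its call only without GFP 4 or Sox11 2 (adjusted p up to 0.0884). The kinase Syk had 201 ± 26.5 and 235 ± 31.8 normalized counts and did not pass (adjusted p = 0.23).

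No gene passed in limma among 12 genes of fractalkine and purinergic signalling (none had an unadjusted p below 0.05) and 6 integrin partners (1 had). EdgeR and DESeq2 on the recovered reads also called none in either list, while 1 integrin partner rose with sample weights and 1 within columns numbered 4 and above. Itgb2, the beta subunit that pairs with Itgax, had 267 ± 36.7 and 306 ± 29.9 normalized counts (mean ± SD, n = 5 each, adjusted p = 0.241). Of 15 myeloid transcription factors none rose (1 at an unadjusted p below 0.05, 0 in edgeR and DESeq2) and 3 fell, Bhlhe41 by 0.51 (SE 0.12), Bhlhe40 by 0.44 (SE 0.10) and Mef2a by 0.26 (SE 0.08), which neurons also express. Mef2a kept its call only with GFP 1, GFP 3, GFP 6 or Sox11 7 removed (adjusted p up to 0.0853). Spi1, which encodes PU.1, had 148 ± 18.5 and 162 ± 29.9 normalized counts (adjusted p = 0.632). Of 12 lysosomal membrane genes 1 fell, Tmem106b by 0.21 (SE 0.06), and it kept its call only with GFP 1, GFP 3, Sox11 6 or Sox11 7 removed (adjusted p up to 0.0901).

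Markers of other cells that can carry Itgax or Clec7a were measured beside them. Of 10 markers of border-associated macrophages none passed in limma, edgeR or DESeq2 (none had an unadjusted p below 0.05 in limma), and their summed level was 844 to 3793 normalized counts in GFP and 935 to 2817 in Sox11 libraries. Of 16 markers of monocytes, neutrophils and dendritic cells 7 were tested and 1 fell, Flt3 (log2 fold change -0.31, SE 0.09), which among single removals kept its call only without GFP 3 or Sox11 6 (adjusted p up to 0.0987). The Flt3 call also ended in edgeR, under TMM scaling and with no filter, and held in DESeq2. The summed level was 2025 to 2559 in GFP and 1877 to 2278 in Sox11 libraries. Ly6c1, which endothelial cells also make, accounted for about 1138 of the normalized counts in GFP and 1035 in Sox11 libraries. Ly6c2, a monocyte marker that reached the mean of 10 only through the Sox11 group, had 2.71 ± 2.27 and 19.9 ± 19.4 normalized counts, with 4 of 5 Sox11 libraries above the highest GFP library, and did not pass (adjusted p = 0.112 in limma). The neutrophil markers S100a8 (2.11 ± 1.70 and 4.90 ± 3.01), S100a9 (a Sox11 mean of 5.37 ± 4.97, with 3 of 5 libraries above the highest GFP library) and Retnlg (0.22 ± 0.49 and 2.03 ± 1.93) were also higher on average, at levels too low to be tested. The neutrophil marker Ly6g was at 0 in all libraries. The dendritic cell markers Xcr1 and Clec9a did not exceed 1.06 and 2.90 in any. Ccr2, tested in the same list, averaged 16.9 normalized counts in GFP and 16.3 in Sox11 libraries. It did not pass (log2 fold change 0.37, SE 0.76). Cd209a (means of 11.3 in GFP and 11.8 in Sox11 libraries), Itgae (20.7 and 18.4) and Zbtb46 (513 and 514) did not pass either.

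Lymphocyte markers and interferon response genes were higher in Sox11 libraries in part, as Itgax and Clec7a were. Of 19 lymphocyte markers 8 were tested, of which Trbc2, Gzmk, Cd79a and Ccl5 reached the mean of 10 only through the Sox11 group. Cd52 rose from 33.7 ± 5.59 to 73.1 ± 24.4 normalized counts, and Ccl5, which had to differ by that route, was also called. The summed level was 252 to 471 normalized counts in GFP and 392 to 665 in Sox11 libraries, and Cd8a had 2.91 ± 2.62 and 11.0 ± 1.34 (mean ± SD, n = 5 each). Of 25 interferon response genes 10 rose and none fell, with a median log2 fold change of 0.87, and the 3 of lowest p were the GTPases Iigp1 and Mx1 (log2 fold change 2.35, SE 0.55) and the chemokine Cxcl10 (2.44, SE 0.57). Mx1 and Zbp1, of which Mx1 is among the 10, reached the mean of 10 only through the Sox11 group and so had to differ. That count was 4 to 17 with 1 library left out, 17 without GFP 3, 4 without GFP 6, Sox11 1 or Sox11 3, 5 without GFP 4 or Sox11 2, and 6 without GFP 5. Their summed level was 4101 to 8383 normalized counts in GFP libraries and 6456 to 11581 in Sox11 libraries, with GFP 3 the highest of its group and Sox11 6 the lowest of its own. Sox11 6 was also the lowest Sox11 library for Itgax, Clec7a and Laptm5, and Sox11 3 for Tyrobp. The highest Sox11 library was Sox11 1 for the interferon sum, Sox11 7 for Itgax and Tyrobp, Sox11 3 for Clec7a and Sox11 2 for Laptm5. In the GFP group, Clec7a was highest in GFP 3, and Itgax, Laptm5 and Tyrobp in GFP 4. GFP 5 was lowest for the interferon sum, Itgax and Laptm5, and GFP 6 for Clec7a and Tyrobp. Fitted within columns numbered 1 to 3 alone, 1 interferon gene, 0 lymphocyte markers, 0 of the further resting markers and 0 myeloid transcription factors passed, and within columns numbered 4 and above 12, 2, 3 and 5 did. The part of these cells and of the interferon response in the members' changes was not tested.

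**Figure D4:**
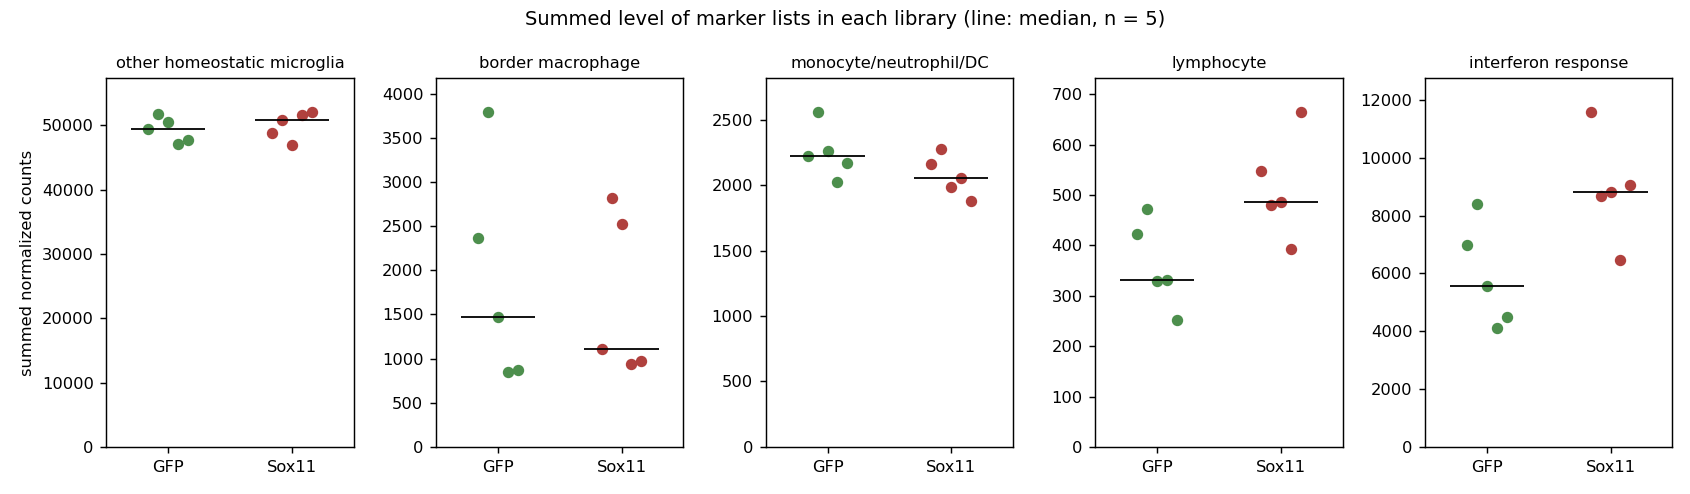
Summed normalized counts (y axis, from 0) of 5 marker lists in each library by group, with the median of 5 libraries as a line. The sums of further resting microglia markers cover the same range in both groups, and the lymphocyte and interferon sums are shifted up in Sox11 libraries with overlap.

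Among the lists for neighbouring cells, 3 of 10 astrocyte markers rose and none fell, and 1 of 10 granule neuron markers rose and 4 fell. The astrocyte markers were Gfap (log2 fold change 0.46, SE 0.08), Aldh1l1 (0.22, SE 0.05) and Sox9 (0.29, SE 0.08). Of the granule neuron markers Stmn2 rose (0.39, SE 0.11), and Plk5, Snap25, Gabrd and C1ql2 fell (-0.39, -0.47, -0.51 and -0.41). Single removals ended the call of Sox9 in 6 cases and that of Stmn2 in 3 (adjusted p up to 0.064 and 0.0586 in limma). No marker of oligodendrocytes and their precursors (0 of 10), of endothelium and mural cells (0 of 10) or of choroid plexus (0 of 8) passed in limma, edgeR or DESeq2, where limma gave an unadjusted p below 0.05 for 0, 0 and 2 genes.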

How the data were processed

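RNA from dentate gyrus of 10 mice was sequenced with a stranded mRNA kit, per the labels' protocols. Tools named in the submitters' processing notes are cutadapt 1.9.1, STAR 2.5.2a, featureCounts 1.5.1 and DESeq2 1.12.3, with build GRCm38. The strand setting, annotation and handling of multi-mapping reads were not given in the sources used here. Deposited by the authors was 1 table of normalized counts, a signal made by dividing reads by a factor per library; every value was a whole multiple of 1 read (tolerance 0.01 reads, 100% of values), so reads were recovered. Column numbers differ from those in the titles, so a column has a group and no sample of its own. Symbols, positions and lengths came from GENCODE M21.

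Genes averaging 10 normalized counts or more were compared on the log2 scale after adding 1, which understates changes of low genes, with limma 3.58.1 in R 4.3.3 (trend and robust options, Benjamini-Hochberg adjustment over 17007 genes, threshold 0.05). Fold changes are Sox11 minus GFP. Alternatives included edgeR 4.0.16 and DESeq2 1.42.0 on recovered reads. In simulated counts for this comparison over 17007 genes, the changed genes were drawn at random from all genes tested, 50 for each fold. Recovered were 12% of those changed 1.2-fold, 66% at 1.5-fold, 60% at 2-fold and 88% at 4-fold. Changes of 1.2-fold were thus mostly missed over such a mix of genes. Rates for genes with the level and spread of Tyrobp, Trem2, Itgax or Clec7a were not simulated. The members and lists were chosen with earlier results of these data known. Named genes were the 10 members and, per list, those past the threshold (at most 3 a direction for the interferon list). Il34, Itgb2, Syk, Spi1, Cst7, Apoe, Cd8a, Xcr1, Clec9a, Ly6g, Ly6c1, Ly6c2, Ccr2, Zbtb46, Cd209a, Itgae, S100a8, S100a9, Retnlg, Trbc2, Gzmk, Cd79a, Zbp1, Sall1, Siglech, Sparc and Golm1 were added for their role or level after values were seen. Python 3.11.15 was used for the exact tests.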

Additional observations from a re-analysis of the deposited data

Results flagged for a closer look

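Among 74 groups of 5 libraries (37 genes in each of the 2 groups), 4 held a library whose distance to its neighbour was over 0.71 of the group's range, and chance gives about 1 in 20. None of the 20 groups of the members did. For Cbl, Sox11 6 had 6449 normalized counts against 5489 to 5636 in the other Sox11 libraries. For Plcg2, Sox11 2 had 425 against 397 to 404. For Sox11 itself, GFP 5 had 1634 against 1364 to 1399 in its group, and Sox11 3 had 20434 against 9803 to 11591.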

How the results depend on the processing

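Of the members, 4 rose and 1 fell under pseudocounts of 0.5 and 8, TMM scaling, edgeR, DESeq2 and the column number covariate, and 5 rose with sample weights, Trem2 added. With no filter 1 member rose, and with a mean of at least 50, which removes Itgax and Clec7a, 2 rose. Of all tested genes, 4.73% rose with no filter, 11.2% with a mean of at least 50 and 11.2% with sample weights. Within columns numbered 1 to 3 and within those numbered 4 and above, an alternative chosen after seeing the data, 0 rose and 0 fell; of all genes, 589 rose and 424 fell within the first and 1237 rose and 1346 fell within the second. With single libraries left out, 1 to 3 members rose, 1 fell, and 15 to 27 pairs of members differed in ratio, against 22. In these fits 7.54% to 9.37% of all tested genes rose and 6.9% to 10.1% fell. Tmem119, which did not pass, changed sign within columns numbered 4 and above (-0.0813) and with libraries left out (-0.0285 to 0.0535). Csf1r, which did not pass, changed sign with sample weights (0.0439), within columns numbered 1 to 3 (0.0447) and with libraries left out (-0.0404 to 0.016). The cause of these changes was not tested. Columns numbered 1, 3 and 6 exist in both groups, but nothing says that a number marks a pair: deviations from the group means correlated by 0.194, 0.0675 and 0.415 for the same numbers, and GFP 1 correlated best with Sox11 2. In these 6 libraries, also chosen after seeing the data, 0 members rose and 0 fell with the column number as a replicate block, and 0 rose and 1 fell unpaired; of all genes, 40 rose and 2 fell with the block, and 409 and 194 unpaired. Depth limits Itgax and Clec7a, with 9 to 72 and 12 to 92 reads a library.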
